A study of Caenorhabditis elegans with 2 samples.

Results

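The numbered col genes are the collagen genes of Caenorhabditis elegans that carry the name col- followed by a number only. They were taken by that rule from the protein-coding genes of the WBcel235 annotation (the ce11 build), which gave 156 of 19973 genes. Most encode small collagens of the cuticle, the extracellular coat that epidermal cells secrete and rebuild at each larval molt. Such a collagen is made as a procollagen, hydroxylated and folded in the endoplasmic reticulum, secreted, trimmed by proteases and cross-linked in the new cuticle. Transcription of many of these genes rises and falls within each molting cycle, and different members are used at different larval stages.

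The series measured by chromatin immunoprecipitation and sequencing (ChIP-seq) where AMA-1, the catalytic large subunit of RNA polymerase II, lay on the genome. The material was whole L2 larvae (the stage after the first molt) of the wild-type strain N2 from the CGC, labelled as pooled male and female and of unknown age, with no added transgene or treatment in the labels. There was 1 group of 2 biological replicates, each from its own biosample, and no second genotype, stage or treatment was given, so the comparisons here are between genes and between replicates and carry no test between conditions. In whole animals, fewer cells occupied by the polymerase and less polymerase per cell cannot be told apart.

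Each peak was read by its summit and by the signal value that the authors gave it. The scale of that value is unstated. Signals were therefore compared within a list, as ranks or as a centred ratio described below. Signals printed beside each other from different lists are not on 1 scale. A gene's window ran from 500 bp upstream of its annotated 5′ end to 500 bp past its 3′ end. The optimal list, made by the authors from both replicates, held 1861 peaks and ended at a signal of 47.38. It was exactly the top of the pooled list. Each replicate list and the pooled list held 30000 peaks, so the 1861 strongest of each replicate are called strong here, which ended at 35.89 in replicate 1 and at 19.78 in replicate 2. Read depth is unknown from these lists, and the Wilson 95% intervals below cover counting error over genes only. Neighbouring genes can share a summit and are not independent.

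Optimal summits lay in the windows of 14 of the 156 col genes (8.97%, interval 5.42 to 14.5%), against 7.60% of all protein-coding genes, so the col share was near the background. The 14 were col-10, col-17, col-38, col-39, col-42, col-79, col-90, col-94, col-103, col-107, col-111, col-144, col-153 and col-166. Of the other members, 86 had no summit in any of the pooled and replicate lists, down to the weakest of their 30000 peaks. The share of all genes with none in any list was not computed. Over the replicate lists, 27 members had a summit in both, 19 in replicate 1 only and 24 in replicate 2 only. For all 19973 genes these counts were 7041, 1957 and 1743. Summits of any strength were in the window of 53 members in the pooled list (33.97%), 46 in replicate 1 (29.49%) and 51 in replicate 2 (32.69%). The shares of all genes were 44.2% in the pooled list, 45.1% in replicate 1 and 44.0% in replicate 2, above the upper bounds of the col intervals (41.71%, 37.07% and 40.39%). The background thus lay above the col interval for peaks of any strength and inside it for optimal peaks. Col genes are also short: their median length was 1220 bp, against 2027 bp for all genes, so their windows covered less sequence. Per megabase of window, 18 optimal summits in 0.382 Mb made 47.13 for col genes, against 20.88 for all genes.

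**Figure D1:**
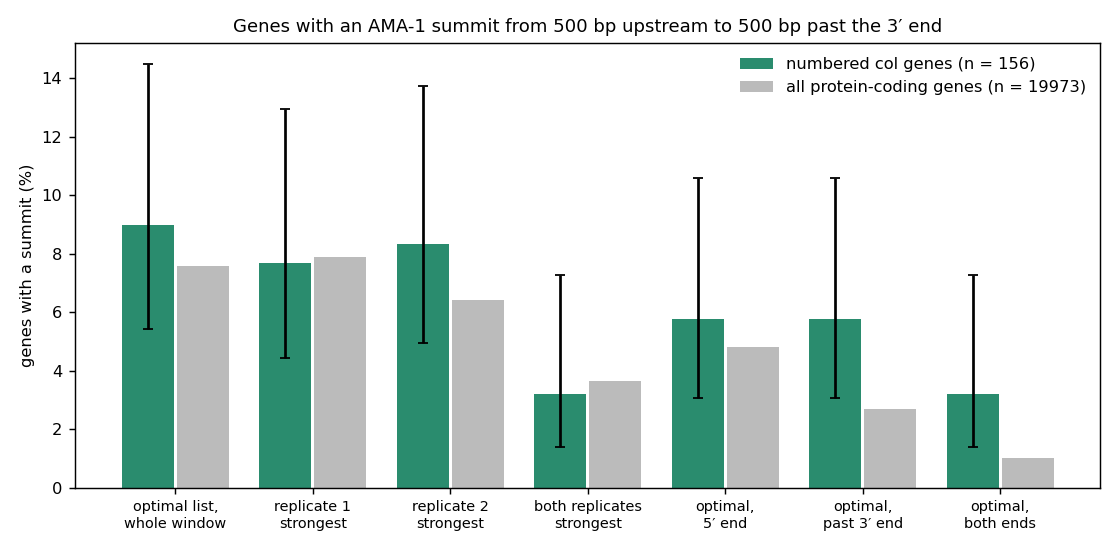
Share of genes (y axis, percent) with an AMA-1 summit in each list or place (x axis), for 156 numbered col genes (green) and 19973 protein-coding genes (grey). Error bars are Wilson 95% intervals on the col shares. The grey bar falls inside the interval for the first 5 pairs of bars and below it for optimal summits past the 3′ end and at both ends.

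The col genes with an optimal summit reached high signals. The highest signal per gene ranged from 50.42 to 168.4, with a median of 95.73, against a median of 68.06 over the 1517 protein-coding genes with an optimal summit. The strong part of each replicate list showed the same order, with a median of 78.4 for 12 col genes against 51.23 in replicate 1, and 33.4 for 13 col genes against 26.96 in replicate 2. Over the whole pooled list the medians were close, at 24.46 for col genes and 23.29 for all genes with a summit. These medians are a description of the genes that passed each list's limit and not of all members.

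The stretches just upstream of the genes with the highest optimal signals are shown because their promoters lie there. Each is the 250 bases before the annotated 5′ end of col-166 (chrX:6279766-6280015, plus strand), col-103 (chrIV:763679-763928, minus strand) and col-10 (chrV:9165308-9165557, minus strand) on ce11, read 5′ to 3′ on the gene's strand from the RefSeq WBcel235 sequence. Capitals mark matches, on either strand, of 5 short motifs. TATAAA is the core promoter box to which the TATA-binding protein attaches. GATAAG is recognised by zinc finger factors of the GATA family, among them epidermal ones. AGGTCA is a half-site of nuclear receptors. GAGAGA is a simple purine repeat found in many worm promoters. TTTCAG is the usual end of a worm intron and also stands where trans-splicing joins the spliced leader. None of the 5 contains another, though neighbouring matches can share end bases.
col-166: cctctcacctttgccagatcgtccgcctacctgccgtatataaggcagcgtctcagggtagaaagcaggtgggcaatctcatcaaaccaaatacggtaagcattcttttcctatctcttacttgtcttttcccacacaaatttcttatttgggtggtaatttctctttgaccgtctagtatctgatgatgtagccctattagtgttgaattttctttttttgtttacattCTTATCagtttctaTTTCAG
col-103: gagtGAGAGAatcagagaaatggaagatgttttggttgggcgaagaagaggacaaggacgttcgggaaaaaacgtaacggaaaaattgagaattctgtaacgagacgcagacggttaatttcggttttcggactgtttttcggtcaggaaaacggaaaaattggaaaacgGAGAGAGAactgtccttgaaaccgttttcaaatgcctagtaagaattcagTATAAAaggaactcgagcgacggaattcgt
col-10: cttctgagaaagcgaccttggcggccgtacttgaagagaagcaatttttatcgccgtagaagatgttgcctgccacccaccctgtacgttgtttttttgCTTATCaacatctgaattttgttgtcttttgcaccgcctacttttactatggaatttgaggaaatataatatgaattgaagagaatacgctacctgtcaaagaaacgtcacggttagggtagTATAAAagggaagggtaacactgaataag

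In col-103 and col-10 the match of TATAAA began at -30 and -29 from the annotated 5′ end. No such match stood near the 5′ end of col-166, whose window ended instead in TTTCAG directly before the annotated 5′ end, with CTTATC, the reverse complement of GATAAG, starting at -20. An annotated 5′ end directly after a splice acceptor can be a trans-splice site, so that transcription may begin upstream of it.

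The last 60 bases before the annotated 5′ end are given for the other members that had an optimal summit within 500 bp of the 5′ end and a match of TATAAA close to it. They were picked for that match, so a like placing among them is not a result. They are col-107 (chrIV:1548661-1548720, plus strand, within an intron of C34H4.5), col-144 (chrV:9160643-9160702, minus strand), col-90 (chrIII:7948778-7948837, plus strand) and col-39 (chrII:10704856-10704915, plus strand, within an intron of dph-2).
col-107: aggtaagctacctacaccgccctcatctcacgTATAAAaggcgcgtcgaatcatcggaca
col-144: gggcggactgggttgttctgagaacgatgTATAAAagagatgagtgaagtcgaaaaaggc
col-90: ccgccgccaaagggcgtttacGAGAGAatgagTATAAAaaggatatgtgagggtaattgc
col-39: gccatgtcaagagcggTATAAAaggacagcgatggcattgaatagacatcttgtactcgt

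The match began at -28 in col-107, -31 in col-144, -28 in col-90 and -44 in col-39. Col-38, col-94 and col-166 also had an optimal summit near the 5′ end. They had no coding-strand match beginning between -50 and -21.

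TATAAA occurred on either strand, from 250 bases before to 50 after the annotated 5′ end, in 103 of 156 col genes (66.03%), against 37.95% of all protein-coding genes. On the coding strand it began between -35 and -25 in 29 col genes (18.59%), against 2.99% of all genes. Among col genes with an optimal summit 5 of 14 had it there (35.71%), and all 5 were among the 9 members whose optimal summit lay within 500 bp of the 5′ end (55.56%). Among col genes without an optimal summit 24 of 142 had it (16.9%). In the wider stretch from -50 to -21, the numbers were 62 of 156 col genes (39.74%), against 7.02% of all genes, with 7 of 14 members that had an optimal summit, 6 of 9 that had it within 500 bp of the 5′ end (66.67%) and 55 of 142 (38.73%) that had none. Both stretches were chosen after the positions were seen and carry no test.

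**Figure D2:**
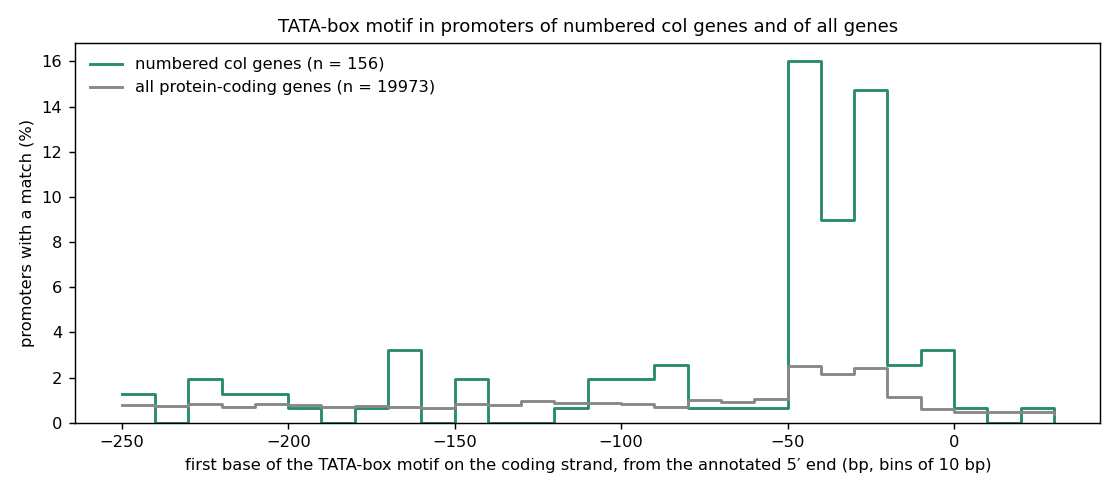
Share of promoters (y axis, percent) in which the TATA-box motif begins in each 10 bp bin (x axis, bp from the annotated 5′ end, coding strand), for 156 numbered col genes (green) and 19973 protein-coding genes (grey). The col line stands highest between -50 and -21, where 39.74% of col promoters and 7.02% of all promoters held a match.

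The other 4 motifs differed less between the col promoters and all promoters. GATAAG was in 36 col promoters (23.08%, against 16.73% of all), AGGTCA in 21 (13.46%, against 8.27%) and GAGAGA in 42 (26.92%, against 21.79%). TTTCAG was rarer, in 55 (35.26%, against 51.68%). In the 9 members with an optimal summit within 500 bp of the 5′ end, GAGAGA was in 7, as many as TATAAA over the same stretch. GATAAG was in 3 of these 9, AGGTCA in 2 and TTTCAG in 3. These counts are small and were not tested, and a match is not shown to be a bound site.

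Along the gene, optimal summits of col genes stood at the 5′ end and just past the 3′ end, and rarely between. An optimal summit lay within 500 bp of the 5′ end in 9 members (5.77%, interval 3.07 to 10.6%), against 4.80% of all genes. Past the 3′ end, within 500 bp of it, 9 members had one (5.77%), against 2.70%. Among these 9, the summit of col-79 was the one at the 5′ end of col-39, so that peak was counted at both places. Those of col-103, col-107 and col-153 also lay inside other genes. The count over all genes was made in the same way. The body, which overlaps the 5′ end stretch, held one in 8 members (5.13%, interval 2.62 to 9.79%), against 3.23%. Each gene and summit pair was also given 1 place, the 5′ end first. Of the 19 col pairs, 9 were at the 5′ end (47.37%), 1 in the remaining body (5.26%) and 9 past the 3′ end (47.37%). Of the 2147 pairs of all genes, 46.76% were at the 5′ end, 27.76% in the remaining body and 25.48% past the 3′ end. A short gene leaves little body beyond 500 bp from its 5′ end, and length was not matched between the groups.

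**Figure D3:**
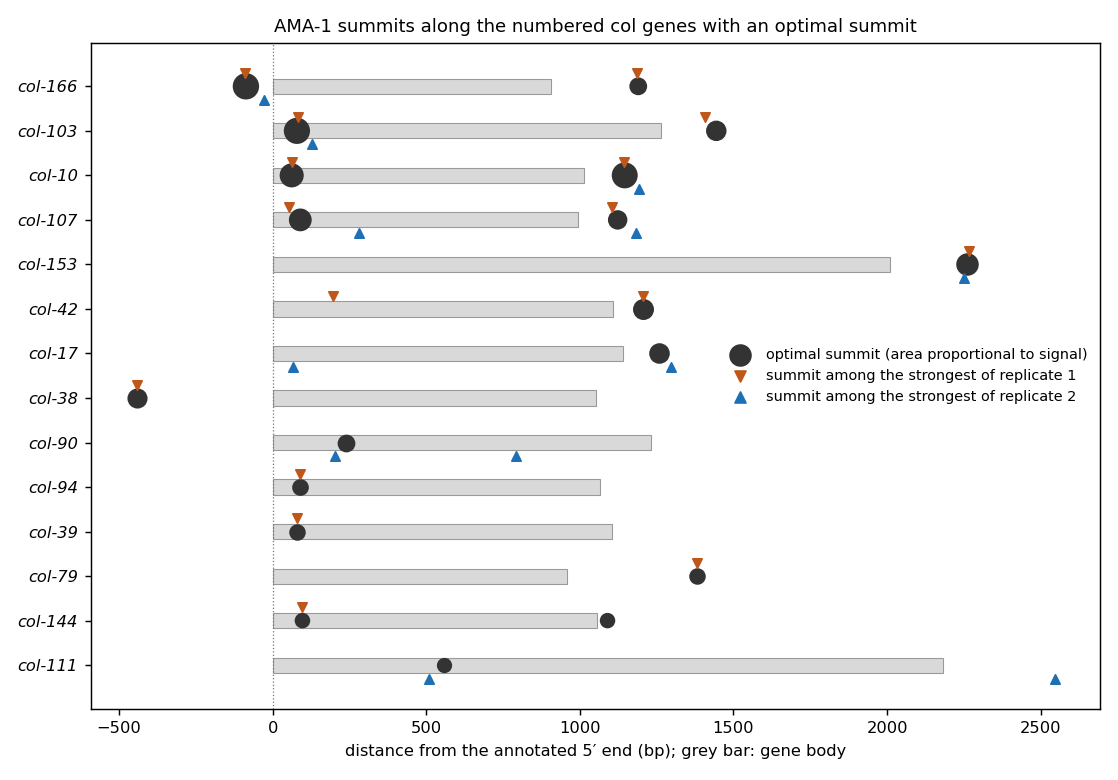
AMA-1 summits along the 14 numbered col genes with an optimal summit (rows), by distance from the annotated 5′ end in bp (x axis). Grey bars are gene bodies, black circles optimal summits with area proportional to signal, and triangles strong summits of replicate 1 (orange) and replicate 2 (blue). In 5 genes, col-166, col-103, col-10, col-107 and col-144, optimal summits stand at both ends.

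Optimal summits at both ends were found in 5 members, col-10, col-103, col-107, col-144 and col-166 (3.21%, interval 1.38 to 7.28%), against 1.03% of all genes (206 genes). That was 35.71% of the 14 members with an optimal summit and 13.58% of all genes with one. In the strong list of replicate 1 alone, both ends were marked in 5 members (3.21%), against 0.906% of all genes, and in that of replicate 2 in 3 members (1.92%, interval 0.66 to 5.50%), against 0.746%. These were partly other genes. Replicate 1 had col-42 in place of col-144, the 3 of replicate 2 were col-17, col-107 and col-125, and only col-107 was marked at both ends in all 3 lists. The members named were chosen after the summits were seen, so the excess is a description.

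The gene with the highest optimal signal was col-166 (chrX:6280016-6280921, plus strand). Its upstream summit, at -87 bp from the 5′ end, had an optimal signal of 168.4 (rank 115). The overlapping peaks had a signal of 145.1 (rank 91) in replicate 1 and 25.3 (rank 1014) in replicate 2. A second optimal summit, 285 bp past the 3′ end, had a signal of 71.2, with 50.5 in replicate 1 and 18.9 in replicate 2. The upstream peak was thus the higher of the pair in both replicates.

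In col-103 (chrIV:762413-763678, minus strand) the summit at 79 bp after the 5′ end lay in a coding exon and had an optimal signal of 166.1, with 134.7 (rank 105) in replicate 1 and 29.1 (rank 693) in replicate 2. The second, 179 bp past the 3′ end, had a signal of 97.0, with 74.2 in replicate 1 and 16.7 in replicate 2. This second summit also lay inside gst-40, a glutathione S-transferase gene, and cannot be given to one of the genes alone.

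For col-10 (chrV:9164292-9165307, minus strand) the replicates put the weight at different ends. The summit 62 bp after the 5′ end, in a coding exon, had an optimal signal of 138.1, with 127.3 (rank 117) in replicate 1 and only 9.61 (rank 8538) in replicate 2. The summit 131 bp past the 3′ end had 162.9, with 124.9 (rank 121) in replicate 1 and 49.0 (rank 176) in replicate 2. Replicate 1 held peaks of about equal signal at both ends, and in replicate 2 the peak past the 3′ end was the higher.

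Col-107 (chrIV:1548721-1549714, plus strand) lies inside C34H4.5, which runs on the opposite strand. Its summit 90 bp after the 5′ end had an optimal signal of 122.8, with 93.8 (rank 213) in replicate 1 and 29.8 (rank 656) in replicate 2. The one 130 bp past the 3′ end had 86.8, with 60.2 (rank 576) and 31.5 (rank 549). ChIP-seq does not give the strand of transcription, so the polymerase of C34H4.5 and of col-107 cannot be told apart here.

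Col-144 (chrV:9159586-9160642, minus strand) had a weaker pair, of 52.6 at 97 bp after the 5′ end and 52.1 at 34 bp past the 3′ end. Replicate 1 gave 35.9 and 33.7 at these peaks, and replicate 2 gave 15.8 and 17.8. The first was the last peak of the strong list in replicate 1 (rank 1861), and neither was strong in replicate 2. A noncoding RNA gene, B0222.10, lay 12 bp from the summit past the 3′ end, and 0.565 of the 31-base words under that peak were unique in the genome.

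The ratio between the ends can be read within a list. The log2 ratio of the signal past the 3′ end to that at the 5′ end was 0.24 for col-10 in the optimal list, -0.77 for col-103, -0.50 for col-107, -0.02 for col-144 and -1.24 for col-166. In replicate 1 these ratios were -0.03 for col-10, -0.86 for col-103, -0.64 for col-107, -0.09 for col-144 and -1.52 for col-166. In replicate 2 they were 2.35 for col-10, -0.80 for col-103, 0.08 for col-107, 0.18 for col-144 and -0.42 for col-166. The ratio was higher in replicate 2 in 5 of 5 members, by a median of 0.72, and in 109 of 189 genes with peaks at both ends in both replicates (57.67%), by a median of 0.20. With 1 library on each side this has no replicate check.

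The other members with an optimal summit had it at 1 end or in the body. Past the 3′ end stood the summits of col-153, col-42 and col-17. That of col-153 (chrV:10949811-10951821, plus strand) had an optimal signal of 119.5, with 83.3 (rank 277) in replicate 1 and 37.2 (rank 372) in replicate 2. It was 251 bp past the 3′ end of col-153 and 212 bp after the 5′ end of F17C11.4, inside that gene.

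That of col-42 (chrV:18638484-18639591, plus strand), 98 bp past the 3′ end, had 102.6 in the optimal list, 94.4 (rank 210) in replicate 1 and 14.96 (rank 3591) in replicate 2. Replicate 1 also had a strong summit of 35.9 at 197 bp after its 5′ end. Col-17 (chrII:4866436-4867576, minus strand) was marked in replicate 2 alone. Its summit 117 bp past the 3′ end had an optimal signal of 98.2 and was the highest col summit of replicate 2, at 80.7 (rank 55), while no replicate 1 peak overlapped it. Replicate 2 also had a strong summit of 23.2 at 66 bp after its 5′ end.

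At the 5′ end or in the body stood the summits of col-38, col-90, col-94, col-39 and col-111. Col-38 (chrII:8568035-8569088, minus strand) had its summit at -443 bp, with an optimal signal of 93.2, 73.5 in replicate 1 and 16.6 in replicate 2. That position was within the noncoding RNA genes F54C9.17 and F54C9.16 and 396 bp upstream of rpl-5, which encodes a ribosomal protein, so the peak cannot be given to col-38 alone.

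Col-90 (chrIII:7948838-7950068, plus strand) had a summit in a coding exon 239 bp after the 5′ end, with an optimal signal of 70.9 and 56.3 (rank 133) in replicate 2. No replicate 1 peak overlapped it. Replicate 2 had another strong summit of 47.6 (rank 191) at 792 bp, whose pooled signal of 45.9 was just under the limit of the optimal list. In col-111 (chrIV:4655791-4657974, minus strand) a summit at 558 bp, in a coding exon, had 50.4 in the optimal list, 9.98 (rank 15029) in replicate 1 and 38.5 (rank 341) in replicate 2.

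Col-94 (chrIII:10986808-10987873, minus strand) and col-39 (chrII:10704916-10706019, plus strand) were marked in replicate 1 alone. Col-94, which lies inside the dynein heavy chain gene dhc-4, had a summit at 89 bp with 61.8 in the optimal list and 72.5 (rank 380) in replicate 1. Col-39, inside dph-2, a gene of diphthamide synthesis on the opposite strand, had one at 79 bp with 60.3 in the optimal list and 60.3 (rank 575) in replicate 1. The col-39 summit also fell in the window of col-79, 423 bp past the 3′ end of that gene, and is its only one in the optimal list.

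The replicates picked partly different col genes. In replicate 1, 12 members had a strong summit (7.69%, interval 4.46 to 12.96%), against 7.90% of all genes. In replicate 2, 13 had one (8.33%, interval 4.94 to 13.73%), against 6.44%. Only 5 members, col-10, col-103, col-107, col-153 and col-166, had one in both (3.21%, interval 1.38 to 7.28%), against 3.64% of all genes. The shared genes made up 41.67% of the col genes in the list of replicate 1 and 38.46% of those in replicate 2, against 46.16% and 56.61% for all genes. Over the whole lists, 27 col genes had a summit in both, which was 58.7% of those in replicate 1 and 52.94% of those in replicate 2, against 78.25% and 80.16% for all genes. No test was made of these shares.

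**Figure D4:**
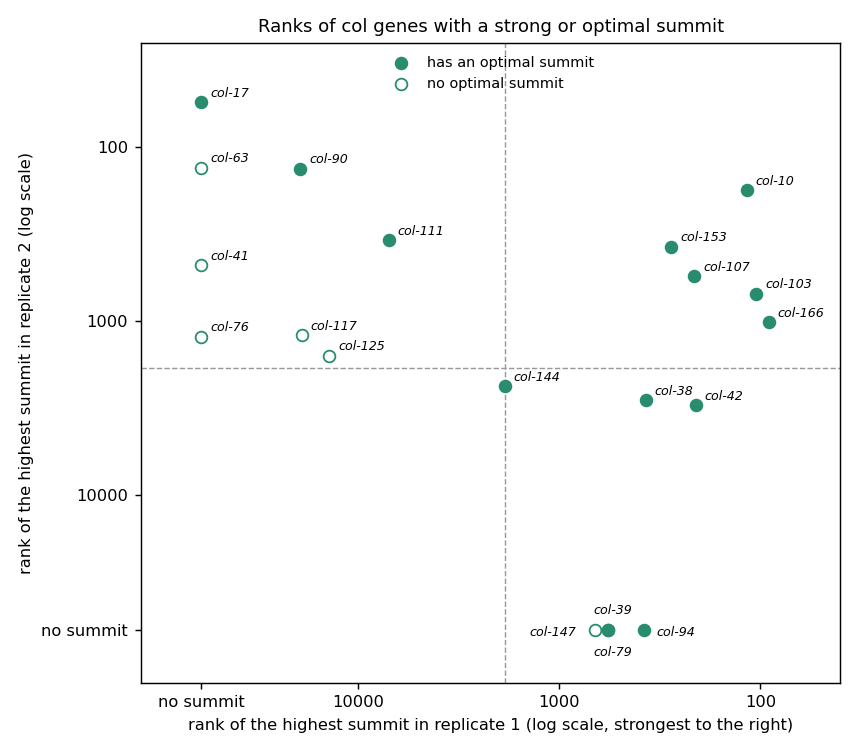
Rank of the highest summit in the window in replicate 1 (x axis) and in replicate 2 (y axis), both on log scales with the strongest at the right and the top, for col genes with a strong or optimal summit. Dashed lines mark rank 1861, and genes with no summit in a replicate stand at the axis position so named. The 5 genes at the top right were strong in both replicates.

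Strong in replicate 1 alone were 7 members, col-38, col-39, col-42, col-79, col-94, col-144 and col-147. Strong in replicate 2 alone were 8, col-17, col-41, col-63, col-76, col-90, col-111, col-117 and col-125. Col-63 counts here only through the edge of its window, since the overlapping peak was also strong in replicate 1 (described below). Over all protein-coding genes, 849 were strong in replicate 1 alone and 558 in replicate 2 alone. Of the 14 optimal genes, 11 were strong in replicate 1 and 8 in replicate 2, and each was strong in at least 1. Of the 18 optimal peaks with a summit in a col window, 14 overlapped a peak of both whole replicate lists, 2 of replicate 1 only and 2 of replicate 2 only, so 22.22% rested on 1 replicate. Of the 1558 optimal peaks in all protein-coding windows, 1473 overlapped both and 5.46% rested on 1.

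The replicates can also be compared by the log2 ratio of replicate 1 to replicate 2 signal, centred on its median over all optimal peaks present in both. At the 14 optimal peaks of col genes present in both replicates, the ratio had a median of 0.26 and ran from -3.22 to 2.45, with quartiles of -0.11 and 0.92. It was above 0 at 9 peaks and below 0 at 5. At all 1473 such peaks in protein-coding windows the median was 0.01, with quartiles of -0.63 and 0.75 and a range of -4.69 to 3.49. Over the 43 pooled peaks in col windows, weak ones included, the median was -0.36, against -0.62 for 13897 pooled peaks in all windows, so the sign depended on where the ratio was centred. The col peaks are among those of all protein-coding windows, so their range had to lie inside the wider one. Each side is 1 library.

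Members that were strong in 1 replicate but not optimal numbered 6. Col-41 (chrX:15175032-15176481, minus strand), which lies inside ucr-2.2, a gene of the mitochondrial respiratory chain, reached the highest pooled signal without an optimal summit, at 45.3 (rank 2018). Replicate 2 had 33.4 (rank 477) at 174 bp after its 5′ end, and replicate 1 had no peak in the window. Col-147 reached 57.2 (rank 667) in replicate 1 at 1151 bp, in its 3′ UTR, and had no summit in replicate 2. That summit also lay inside T06E4.5, 943 bp after its 5′ end, no pooled peak overlapped it, and it cannot be given to col-147 alone. Col-76, col-117 and col-125 reached 23.6, 23.7 and 21.3 in replicate 2, close to the limit of the strong list. The summit of col-117 lay inside T28C6.5, that of col-125 inside best-7 and that of col-76 at 105 bp from qua-1.

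Col-63 was a case of the window's edge. Replicate 2 had a summit of 56.8 (rank 131) at -491 bp. The overlapping peaks of replicate 1 (130.5, rank 113) and of the pooled list (141.2, rank 158) had theirs at -602 and -579 bp, outside the window. That pooled peak belongs to the optimal list by its rank, so the peak was strong in both replicates and col-63 is not a replicate difference. The homeobox gene ceh-8 and the noncoding RNA gene ZK265.11 lay nearby.

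After col-41, the highest pooled signals without an optimal summit were 33.6 for col-97, 33.2 for col-98, 30.3 for col-48 and 29.99 for col-89. The highest summits in their windows had a signal of 8.38 in replicate 1 and 10.7 in replicate 2 for col-97, of 35.1 in replicate 1 for col-98 with none in replicate 2, of 14.9 and 18.9 for col-48, and of 12.9 and 13.6 for col-89. None of the 4 was strong in a replicate.

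Of the 5 members singled out by name, col-12, col-13, col-17, col-19 and col-99, col-17 had the optimal summit described above and the other four had neither a strong nor an optimal one. Col-19, a collagen of the adult cuticle whose promoter is widely used as a marker of the adult epidermis, had no summit in any list. Col-99, a membrane-anchored collagen with a part in axon guidance, had 1 weak summit in replicate 2 (9.05, rank 9492) and none in replicate 1. Col-12 had a pooled signal of 14.3 (rank 15752) and 15.3 in replicate 1, with none in replicate 2. Its close copy col-13 had 5.05 (rank 28912) in replicate 1 alone.

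Near-identical neighbours limit such readings, since reads from copies cannot be placed uniquely. In 5 members, col-3, col-13, col-62, col-117 and col-126, fewer than 0.5 of the 31-base words of the window were unique in the genome, and none of these had an optimal summit. The sources used here do not say how reads that map to several places were treated, so low values at these genes are uncertain. Over the 151 members with mostly unique windows, 14 had an optimal summit (9.27%, interval 5.60 to 14.96%), against 7.79% of all such genes. Over the 124 members with no other protein-coding 5′ end in the window, 12 had one (9.68%, interval 5.62 to 16.16%), against 5.65%.

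Many col genes lie next to each other. Chaining members less than 10 kb apart put 50 of the 156 in 21 clusters, of which 6 held 3 or more genes. Of the 14 optimal genes 6 lay in a cluster, and 2 of these 6, col-39 and col-79, share 1 summit. No like share was computed for clusters of other genes. In most of the clusters of 3 the summits belonged to some neighbours and not to others. A low share of marked genes (8.97% of members, 7.60% of all genes) makes such partly marked clusters the usual case.

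**Figure D5:**
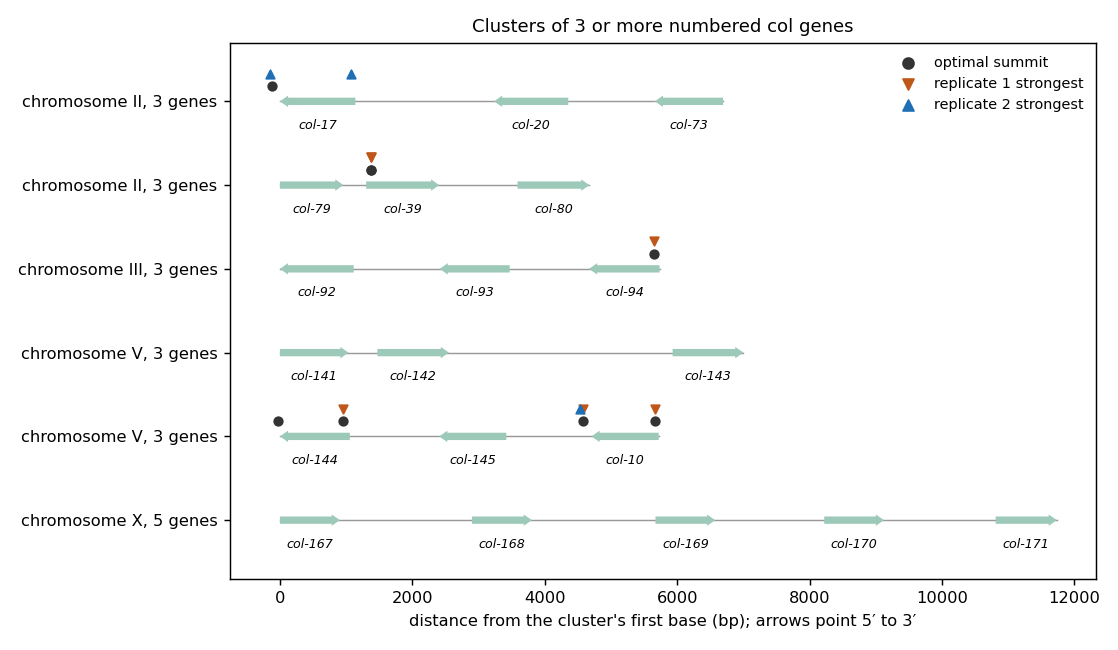
The 6 clusters of 3 or more numbered col genes (rows), by distance from the cluster's first base in bp (x axis). Arrows are genes pointing 5′ to 3′, black circles optimal summits and triangles strong summits of replicate 1 (orange) and replicate 2 (blue). The cluster of col-144, col-145 and col-10 holds 4 optimal summits, and those of col-141 to col-143 and of col-167 to col-171 hold none.

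The cluster of col-144, col-145 and col-10 (chrV:9159586-9165307, all on the minus strand) held 4 optimal summits, of which 3 were strong in replicate 1 and 1 in replicate 2. Col-145, in its middle, had no summit in any list. The share of unique words was 0.545 in the window of col-144, 0.890 in that of col-145 and 0.639 in that of col-10. In the cluster of col-17, col-20 and col-73 (chrII:4866436-4873129, all on the minus strand) only col-17 had an optimal summit. Col-20 had no summit in any list, and col-73 had a pooled signal of 25.3, with 8.98 in replicate 1 and 11.3 in replicate 2.

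In the cluster of col-79, col-39 and col-80 (chrII:10703613-10708287, all on the plus strand) the 1 optimal summit stood at the start of col-39, and col-80 had none in any list. In that of col-92, col-93 and col-94 (chrIII:10982139-10987873, all on the minus strand) only col-94 had a summit. The share of unique words was 0.560 in the window of col-92, 0.709 in that of col-93 and 0.520 in that of col-94. The cluster of col-141, col-142 and col-143 had none in any list. The largest, from col-167 to col-171 (chrX:6323488-6335221, all on the plus strand), had weak peaks alone. Its pooled signals were 23.4 for col-167, 15.7 for col-168 and 17.5 for col-169, and col-170 and col-171 had none. The shares of unique words in the windows of col-167 to col-170 were 0.593, 0.546, 0.696 and 0.636, and 0.990 in that of col-171. Weak or missing peaks at the partly repeated windows of these clusters are therefore uncertain. In none of the 6 clusters did every gene have an optimal summit. With such a summit in 8.97% of members and 7.60% of all genes, a fully marked cluster would be rare. This is therefore no result about neighbours.

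By chromosome, optimal summits marked 0 of 21 members on I, 4 of 24 on II, 2 of 12 on III, 3 of 41 on IV, 4 of 31 on V and 1 of 27 on X. Over all chromosomes the shares were 8.97% of members and 7.60% of all genes. The shares of all genes on each chromosome were not computed, so these counts cannot be set against a chromosome's own background. The numbers are too small to rank the chromosomes, and members of a cluster are not independent.

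Other genes of the cuticle pathway give the surroundings of these values. Among 19 cuticle collagen genes named for body-shape mutants, 8 had an optimal summit, 10 were strong in replicate 2 and 1 in replicate 1. The shares over all protein-coding genes were 7.60% for optimal summits, 6.44% for strong summits of replicate 2 and 7.90% for those of replicate 1. Dpy-13, a collagen needed for normal body length, had an optimal signal of 116.0, with 4.97 (rank 29320) in replicate 1 and 94.7 (rank 33) in replicate 2. Sqt-3, another cuticle collagen, had 106.3, with 12.6 (rank 11091) in replicate 1 and 92.3 (rank 37) in replicate 2. The numbered col genes had 12 members strong in replicate 1 and 13 in replicate 2, and the difference between the lists was not tested.

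Of 19 genes of collagen synthesis and processing, 5 had an optimal summit, 5 were strong in replicate 1 and 7 in replicate 2, beside the same shares of all genes (7.60%, 7.90% and 6.44%). Pdi-2, a protein disulfide isomerase and subunit of the prolyl 4-hydroxylase, had 109.4, with 80.1 (rank 306) in replicate 1 and 28.3 (rank 749) in replicate 2. Dpy-31, an astacin protease that trims cuticle procollagen, had 60.1, with 43.3 (rank 1228) in replicate 1 and 21.7 (rank 1519) in replicate 2. Dpy-18, a catalytic subunit of the prolyl 4-hydroxylase, was strong in replicate 2 alone (26.1, rank 923), with 5.06 (rank 28888) in replicate 1.

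None of 4 basement membrane and other collagens (emb-9, let-2, cle-1 and mec-5) was strong in a replicate. Of 12 transcription regulators of the epidermis and the molting cycle, none had an optimal summit and none was strong in replicate 1, while 6 were strong in replicate 2, beside the same shares of all genes (7.60%, 7.90% and 6.44%). The 6 were nhr-23, nhr-85, lin-42, grh-1, myrf-1 and bed-3. Nhr-23, a nuclear receptor that drives the molting cycle, had 14.5 (rank 9129) in replicate 1 and 24.5 (rank 1110) in replicate 2, and lin-42, the worm period homologue, had 39.8 (rank 292) in replicate 2 and no peak in replicate 1. Others of the list had the higher rank in replicate 1. The epidermal GATA factor elt-1 had 30.4 (rank 2578) in replicate 1 and 10.5 (rank 7233) in replicate 2, the nuclear receptor nhr-25 had 27.0 (rank 3261) and 7.20 (rank 13567), and elt-3 had 20.9 (rank 5127) and no peak in replicate 2. Whether the replicates were harvested at different times within the L2 stage is not given in the labels, and its part in the values was not tested.

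Markers of several tissues were looked up as a check of the whole-animal label. Strong or optimal summits were found at 1 of 3 markers of the epidermis (lin-26), of muscle (unc-54) and of neurons (snb-1), and at none of 3 markers of the intestine or of the germline. The shares of all genes were 7.60% for optimal summits, 7.90% for strong ones of replicate 1 and 6.44% for those of replicate 2. Lin-26 had rank 262 in replicate 2 and no peak in replicate 1. Unc-54 had rank 1858 in replicate 1, close to the limit, and 811 in replicate 2. Snb-1 had rank 942 in replicate 1 and 4903 in replicate 2. So few markers do not show which tissues the peaks came from. The germline markers pgl-1, glh-1 and gld-1 had no summit in any list.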

How the data were processed

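AMA-1 ChIP-seq peak lists of 2 biological replicates of whole N2 L2 larvae were analysed. The authors deposited, per replicate, a list of peaks and background in the narrowPeak layout, with a pooled list and an optimal list made from them by the irreproducible discovery rate, per the deposited file descriptions. Column 7 holds the signal value the authors gave each peak, never negative and of unstated scale, and column 10 the summit. Not given in the sources used here are the aligner, the peak caller, the treatment of repeated reads and the rate threshold. Depth is unknown. Lists on ce11 were used, and ce10 lists were not. Every column of per-sample values was mapped to its sample or pool (0 left over).

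Genes came from Ensembl release 115 (WBcel235), and promoters from the RefSeq sequence of that assembly at the Ensembl 5′ ends. Summits were counted in windows of 500 bp on each side of each gene, and Wilson 95% intervals were computed. Windows and intervals were tested on simulated data. Unique share is the share of 31-base words found once in the genome on both strands. Python 3.11.15, numpy 2.4.6, pandas 2.3.3, scipy 1.17.1 and matplotlib 3.10.9 were used.

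Described by name were members with an optimal summit, the 10 highest of each replicate's strong list, members of clusters of 3 or more genes with an optimal summit, the 5 highest pooled signals without one, and col-12, col-13, col-17, col-19 and col-99. Other members named are strong in a replicate or lie in clusters of 3 or more, and were chosen after their values were seen. Members and lists were chosen with earlier results of these data known. Of the 20 genes each listed for processing and for other cuticle collagens, phy-4.1 and ram-4 matched no protein-coding name. Other windows, list lengths, gene assignments, cluster gaps, single replicates and centrings were tried.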

Additional observations from a re-analysis of the deposited data

How the results depend on the processing

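The count of 14 col genes with an optimal summit ran from 8 to 16 over the alternatives tried. It was 8 in the gene body alone, 9 within 500 bp of the 5′ end alone and 9 with the upper part of the optimal list to the rank in its middle. With a single replicate it was 12 or 13. With 2 times the optimal number of pooled peaks it was 15 (9.62%, interval 5.91 to 15.26%), against 13.49% of all genes. Over the 12 alternatives with a background, the col share was above that of all genes in 10 and below it in 2, and the all-gene share lay outside the col interval in 0. The median signal of these genes, 95.73 in the optimal list, was 33.4 without replicate 1 and 78.4 without replicate 2, which are different scales. The 6 optimal genes in clusters were 3 without replicate 1 and 6 without replicate 2, and 44 to 55 col genes lay in clusters with other gaps. The 8 genes strong in replicate 2 but not in replicate 1 were 5 in the gene body alone, 5 with 0.5 times as many strong peaks, 13 with 2 times as many and 24 over the whole lists. The all-gene counts were 558 in the main setting, 342 with 0.5 times as many, 882 with 2 times as many and 1743 over the whole lists. In that order, the col genes in replicate 1 but not in replicate 2 numbered 7, 7, 7 and 19. The centred log2 ratio of the replicates over pooled peaks in col windows, -0.36, turned to 0.26 over optimal peaks, and to 0.27 when centred on pooled peaks in all protein-coding windows, a setting chosen after seeing the data. As a difference in percentile rank it was -1.23 points, against -1.53 for pooled peaks in all protein-coding windows. With the highest summit per gene the centred ratio was -0.25 for col genes, where all protein-coding genes had a median of 0. Optimal summits near the 5′ end numbered 9, and 8 to 12 at other distances. The causes were not tested beyond what each setting leaves out. No paired analysis was possible because there is 1 group.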
